A study of Rattus norvegicus with 2 samples.

Results

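Ssbp2 circRNAs are closed RNA molecules made when a downstream splice site within the transcripts of Ssbp2 is joined back to an upstream one. All circRNAs whose gene field holds Ssbp2 were taken, which gave 14 of the 11599 circRNAs listed for rat tissue labelled as spinal cord. They lay between 20488617 and 20674691 on chromosome 2 (build rn6), a window of 186075 bp. Strand was not read, so the start, end and upstream side of these circRNAs refer to the order of coordinates. The gene was chosen by its read counts in these libraries, and the dominant circRNA was selected on having most reads summed over both. Its high level and its large share are therefore descriptions.

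The study compared rats with bone cancer pain (BCP) and sham-operated rats. In the BCP group, live Walker 256 cells, a rat mammary carcinoma line passaged as ascites in SD rats, were placed in the marrow of the tibia, and in the sham group the cells had been boiled for 20 minutes. Tissue was taken 21 days after surgery from 3 animals per group, and each group had 1 library. Both groups therefore share the operation and the injected cell line, and the sham group has no uninjected counterpart. No source used here states whether the animals of a group were pooled, or their strain, sex and age. The tissue label of both samples names spinal cord cells, while their source label names the Walker256 line. The tissue label was followed. Linear RNA had been digested with RNase R, an exonuclease that spares most closed circles. The values are reads across back-splice junctions, so they say nothing of the linear Ssbp2 mRNA.

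Ssbp2 encodes a single-stranded DNA binding protein that acts as a nuclear cofactor. SSBP2 and its relatives SSBP3 and SSBP4 bind LDB1, an adaptor that bridges LIM-domain transcription factors, and protect it from degradation. In the developing spinal cord, LDB1 complexes with LIM homeodomain factors such as ISL1 and LHX3 specify motor neurons and interneurons. CircRNAs of 1 gene often share a splice site and differ in the partner it is joined to, and a single isoform can hold most of the circular reads.

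The sham library held 113033 circRNA reads and the BCP library 78836, so that 1 read was worth 8.85 CPM (reads scaled to a library size of 1000000) in sham and 12.7 CPM in BCP. The smallest count above 0 was 2 in both libraries, so a 0 may stand for a circRNA below that minimum, and no fold against it is printed. All intervals are 95% and cover counting error only. They treat reads as independent, so they are too narrow where several reads stem from the same molecule by amplification. With 1 library per group no difference had a replicate check, no p-value was computed, and each comparison is of these libraries and not of the conditions. CircRNAs were listed for 6 of 10 neuron marker genes (1314 reads in sham and 738 in BCP), 3 of 5 of oligodendrocytes (11 and 45), 2 of 5 of astrocytes (19 and 42), 2 of 5 of microglia (11 and 55), 2 of 6 of blood and lymphoid cells (22 and 11) and 2 of 5 of ganglion neurons and Schwann cells (0 and 19). None were listed for the 6 skeletal muscle or the 5 mammary carcinoma genes, nor, among others, for Gfap, Aqp4, Csf1r, Slc17a6, Gad1, Gad2 or Chat. The microglia reads were of Ikzf1 and Dock8 alone and the astrocyte reads of Slc1a2 and Slc7a11 alone. These sums of a few host genes therefore do not measure cell types. Whether the unequal reads of these marker sets bear on the Ssbp2 values was not tested.

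The dominant Ssbp2 circRNA joined position 20531444 back to position 20507150 of chromosome 2, a span of 24295 bp. Its reads numbered 2842 in sham and 1708 in BCP, or 25143 and 21665 CPM. It was the second most abundant circRNA of each library, and the next one down had 802 reads in sham and 560 in BCP. Its share of library reads was 2.51% in sham (exact binomial interval 2.42 to 2.61) and 2.17% in BCP (2.07 to 2.27). Within Ssbp2 it took 92.3% of circRNA reads in sham (91.3 to 93.2) and 91.6% in BCP (90.2 to 92.8). A single back-splice thus held more than 9 in every 10 circular reads of the gene in either library.

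Of the 13 minor circRNAs, the leading one joined the same start to a nearer end, 20519067, and spanned 11918 bp. It had 124 sham reads (1097 CPM) and 82 in BCP (1040 CPM), so the dominant circRNA was 22.9 times as abundant in sham and 20.8 times in BCP. Next was a circRNA that kept the dominant end but started 18533 bp upstream, at 20488617. Its reads were 49 in sham and 29 in BCP. The pairing of this upstream start with the near end had 16 and 6 reads. A circRNA with a start only 5 bp from the dominant one (20507155) and the dominant end had 14 and 6 reads. All 4 of these were found in both libraries.

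**Figure D1:**
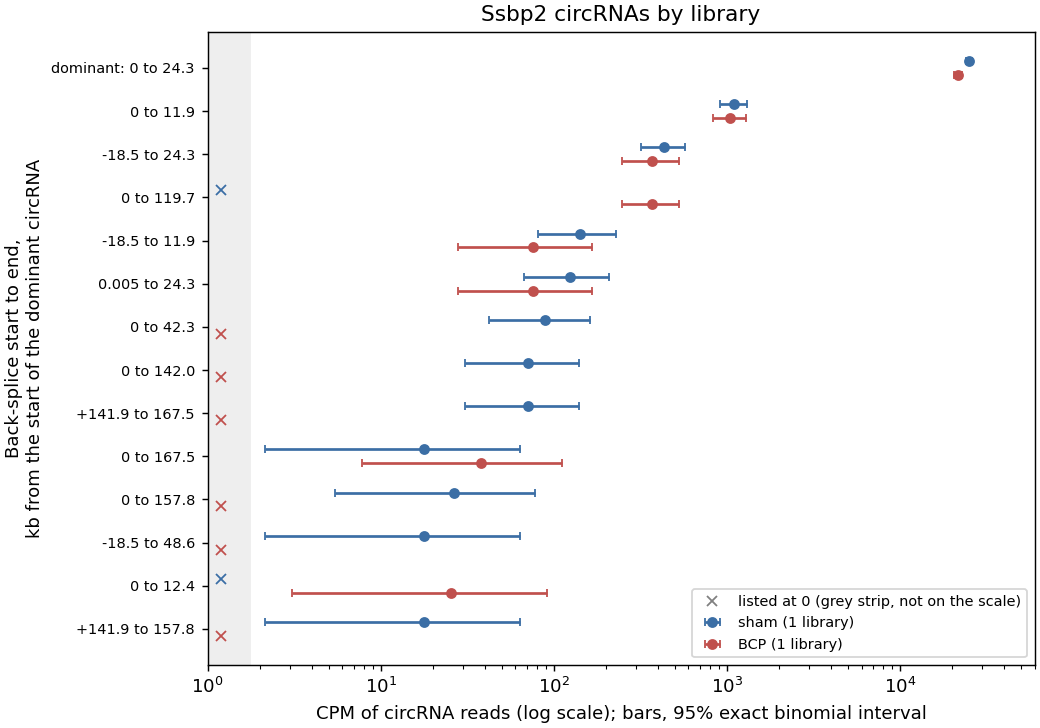
CPM of each of the 14 Ssbp2 circRNAs in the sham library (blue) and the BCP library (red) on a log axis, with 95% exact binomial intervals, labelled by the distance in kb of start and end from the dominant start. The dominant circRNA lies at 25143 and 21665 CPM, far right of the others, and crosses in the grey strip are circRNAs listed at 0.

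The other members were found mostly in 1 library. A circRNA from the dominant start to 20626804, spanning 119655 bp, was at 0 in sham with 29 reads in BCP, as many as the upstream-start circRNA there. At its BCP share, the sham library would have held 41.6 reads of it. Another from the same start to 20549441 had 10 sham reads and 0 in BCP, where 6.97 reads would stand at the sham share. Of these circRNAs, the former was found in BCP alone and the latter in sham alone.

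Below these were 7 circRNAs with fewer than 10 reads over both libraries. A circRNA from the dominant start to 20649110 and another from 20649051 to 20674691 had 8 sham reads each and 0 in BCP. The one joining the dominant start to 20674691, at 167542 bp the longest, had 2 sham and 3 BCP reads. The circRNA from the dominant start to 20664961 had 3 reads in sham alone. Those from 20488617 to 20555751 and from 20649051 to 20664961 had 2 reads each in sham alone, and the one from the dominant start to 20519595 had 2 in BCP alone. Counts this small lie close to the smallest value the table holds, and no order among them could be read.

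In the order of levels, the counting intervals of neighbours did not overlap between the dominant, near-end and upstream-start circRNAs in either library. In sham the upstream-start circRNA also stood clear of the next (49 against 16 reads), and no later neighbours were separated. In BCP the upstream-start circRNA and the one ending at 20626804 were level at 29 reads each, and both stood clear of those with 6 reads. Both libraries listed 6 of the 14 Ssbp2 circRNAs (42.9%), and 4779 of all 11599 (41.2%).

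The positions that these circRNAs used were few on one side and many on the other. There were 4 distinct starts and 9 distinct ends. The dominant start, 20507150, was used by 8 of the 14 circRNAs, with 2989 reads in sham and 1824 in BCP, or 97.05% (96.4 to 97.6) and 97.8% (97.03 to 98.4) of Ssbp2 reads. The dominant end was used by 3 circRNAs, with 2905 and 1743 reads, or 94.3% (93.4 to 95.1) and 93.5% (92.2 to 94.5). Among the minor circRNAs, 7 shared the dominant start (147 reads in sham, 116 in BCP), 2 shared its end (63 and 35) and 4 shared neither (28 and 6). Most minor reads therefore came from the dominant start joined to another end.

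Compared with the dominant circRNA, 4 members were shorter and 9 longer. The dominant span was longer than 74.3% of all circRNAs of the table, whose median was 9708 bp. Spans of at least 100 kb were found for 4 Ssbp2 circRNAs, all from the dominant start, and for 3.01% of the table. Ends beyond the dominant end were used by 8 circRNAs, which had 35 reads in sham over 7 circRNAs and 32 in BCP over 2. Scaled to depth, this sum was 1.31-fold in BCP relative to sham (0.786 to 2.18), an interval that holds 1. Only 1 of these 8 was found in both, against 41.2% of all circRNAs, and 29 of the 32 BCP reads came from the circRNA ending at 20626804. The others of the 8 had at most 10 reads each. The share found in both libraries at such counts was not computed, so this overlap is a description only.

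**Figure D2:**
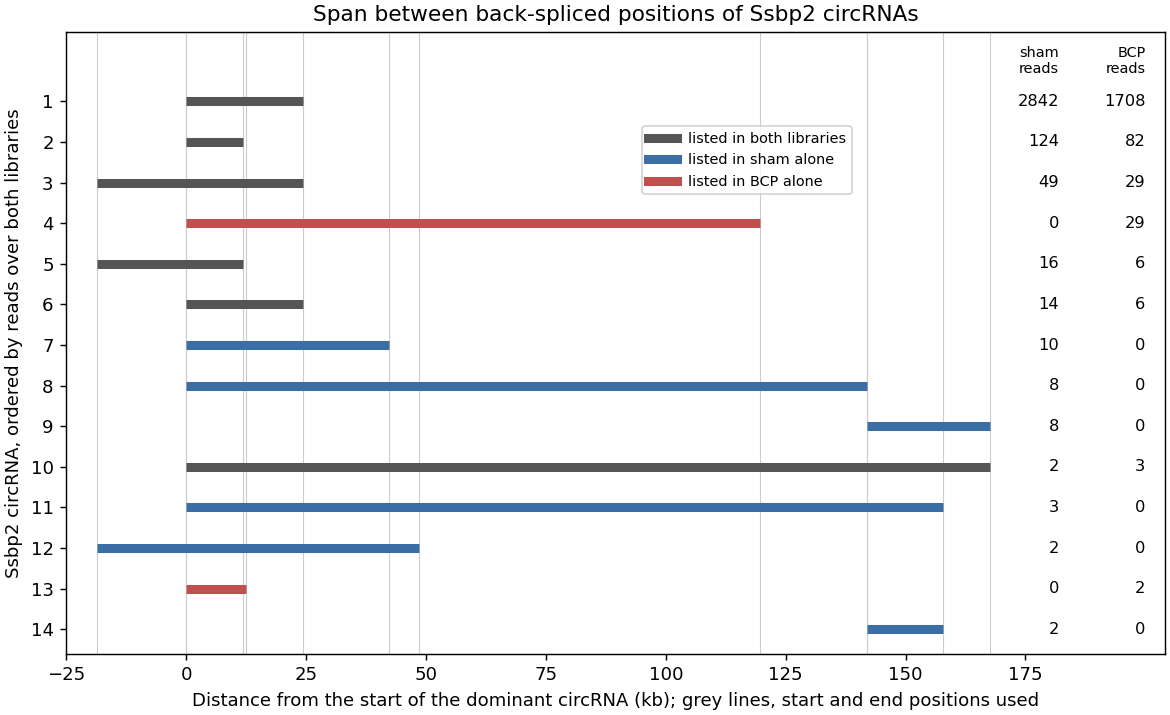
Span of each Ssbp2 circRNA as a bar against distance in kb from the dominant start, ordered from 1 (most reads) to 14, with the reads of both libraries at the right. Grey bars were listed in both libraries, blue bars in sham alone and red bars in BCP alone, and 8 of the 14 bars begin at 0.

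The upstream start and the dominant start were joined to the near end in unequal shares. From the dominant start, reads to the near end were 124 of 2966 in sham (4.18%, 3.49 to 4.96) and 82 of 1790 in BCP (4.58%, 3.66 to 5.66), counting the near and the dominant end. From the upstream start they were 16 of 65 in sham (24.6%, 14.8 to 36.9) and 6 of 35 in BCP (17.1%, 6.56 to 33.7). The intervals of the starts did not overlap within either library. The odds of the near end were 7.47 times as high from the upstream start in sham (conditional exact interval 3.85 to 13.8) and 4.30 times in BCP (1.42 to 10.9). This comparison was chosen after its values were seen.

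The same comparison could be made in 94 sets of a pair of starts and a pair of ends across the table in which all 4 joins had reads in both libraries. Such sets overlap where a gene has several, so they are not independent. Intervals excluded 1 on the same side in both libraries for 19 of them, or 20.2%. Ssbp2 was 19th by the size of its odds ratio in sham and 25th in BCP, with a log2 odds ratio of 2.90 and 2.11 against a median size of 1.23 and 1.26. It had 4856 reads where the median set had 105.5, but 4550 of them were of the dominant join. Widths of intervals were not compared between sets. An end choice that depends on the start was thus not particular to Ssbp2.

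**Figure D3:**
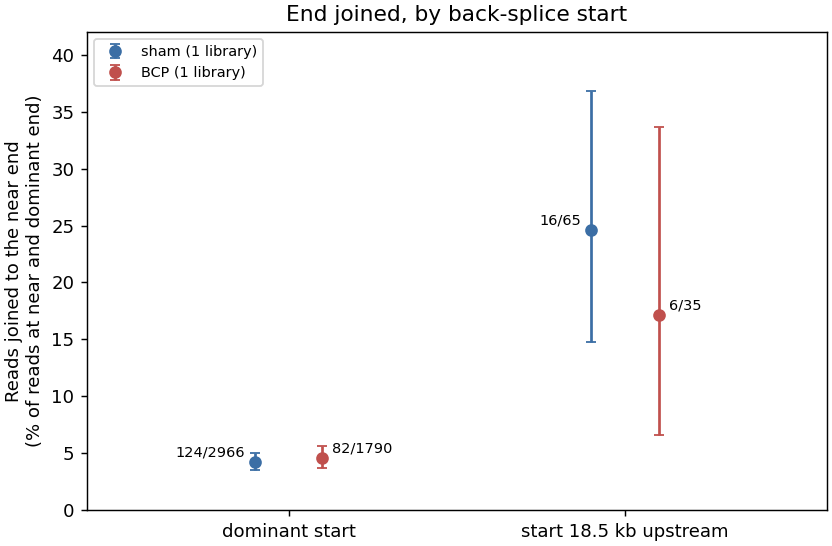
Share of reads joined to the near end, in percent of reads joined to the near or the dominant end, by back-splice start and library, with 95% exact binomial intervals and the read counts beside each point. The dominant start gave 4.18% and 4.58%, and the start 18.5 kb upstream gave 24.6% and 17.1%.

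Within a start, end use was then compared between the libraries. The odds of the near end in BCP relative to sham were 1.10 from the dominant start (0.817 to 1.48) and 0.636 from the upstream start (0.183 to 1.96). Both intervals hold 1, and the latter is wide because only 100 reads stand behind it.

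The question of the design was how BCP differed from sham. The dominant circRNA was 1.16-fold lower in BCP (1.09 to 1.23 by the conditional exact interval), a ratio of 0.862 and a log2 ratio of -0.21. All Ssbp2 circRNAs together had 3080 and 1865 reads, a ratio of 0.868 (0.819 to 0.920). The minor circRNAs together had 238 and 157 reads, a ratio of 0.946 (0.768 to 1.16). Without the circRNA that ends at 20626804, left out after seeing the data, the minor ratio was 0.771 (0.617 to 0.960). That removal was one-sided, since the 6 circRNAs listed in sham alone, with 33 reads, stayed in. Over the minor circRNAs with reads in both libraries, the ratio was 0.881 (0.700 to 1.11), an interval that holds 1. The odds of a dominant against a minor read in BCP relative to sham were 0.911 (0.735 to 1.13). Without the circRNA that ends at 20626804 they were 1.12 (0.890 to 1.41). The balance between dominant and minor circRNAs was not detectably different between the libraries at this depth, which leaves room for odds from 0.735 to 1.13.

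Scaling moves these ratios. Relative to scaling by total circRNA reads, median-of-ratios scaling shifts every log2 ratio by -0.10 and TMM by -0.12, which puts the dominant circRNA at 0.801 (0.754 to 0.851) and 0.7945 (0.748 to 0.844). The counting interval is narrow because the reads are many, and the spread of other abundant circRNAs is wider. Among the 18 most abundant circRNAs (at least 500 reads in all), log2 ratios ran from -0.42 to 0.65 with an SD of 0.28 and a median of 0.03. The dominant Ssbp2 circRNA was the second lowest after Crebrf, and its log2 ratio lay within 1 SD of that median. Intervals lay wholly below 1 for 2 of the 18 and wholly above 1 for 5.

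A size rule was used across the table: at least 10 reads over both libraries, a ratio of at least 2-fold and an interval that excludes 1. The rule took a listed 0 as no reads, so a circRNA at 0 in 1 library always met the 2-fold limit. Of the 7 Ssbp2 circRNAs with enough reads, the rule took 1 as higher in BCP and 1 as lower, and left 5. Over all 3502 circRNAs with enough reads, 7.82% were higher and 7.42% lower. The higher one was the circRNA ending at 20626804 and the lower one that ending at 20549441, each at 0 in the other library. A circRNA listed in 1 library can pass the minimum only through that library, so the count supports nothing about the gene. Of 460 circRNAs with 29 or more BCP reads, 17 (3.70%) were at 0 in sham, this Ssbp2 circRNA among them. Within 2-fold of those 29 reads, 44 of 833 circRNAs (5.28%) were at 0 in sham. Of 2225 with 10 or more sham reads, 174 (7.82%) were at 0 in BCP. That set holds many deeper circRNAs, and within 2-fold of 10 sham reads 1050 of 3537 (29.7%) were at 0 in BCP. The lower call is lost at a minimum of 20 reads, and with a minimum of 5 reads 3 circRNAs were lower in BCP. Those added were the circRNAs with 8 sham reads and 0 in BCP. Shares over all circRNAs were not computed at these minimums, so these counts too support nothing about the gene.

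The 5 left by the rule had ratios below 1 with intervals that hold 1, except the dominant one. The near-end circRNA had a ratio of 0.948 (0.708 to 1.26) and the upstream-start one 0.849 (0.517 to 1.37). The pairing of upstream start and near end had 0.538 (0.172 to 1.45), and the circRNA with the start 5 bp away had 0.614 (0.193 to 1.70). The 3 circRNAs of the upstream start together had 67 and 35 reads, a ratio of 0.749 (0.483 to 1.14). Direction was shared by these circRNAs, but apart from the dominant one their reads cannot separate it from no difference.

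**Figure D4:**
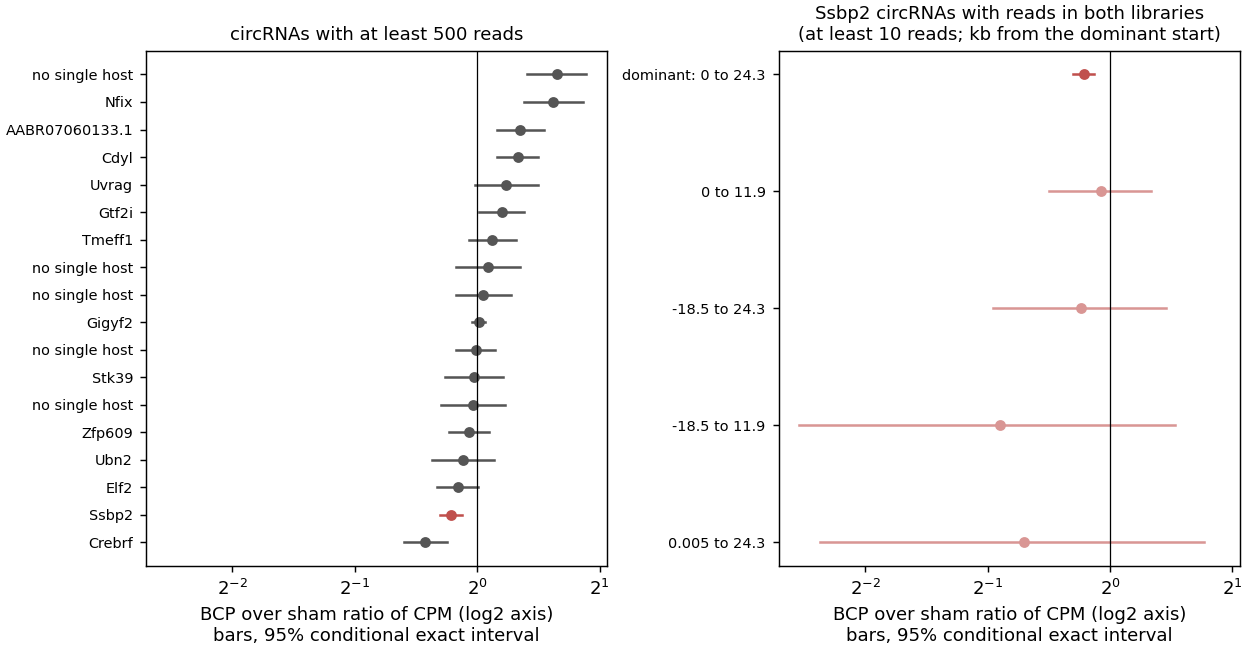
BCP over sham ratio of CPM with 95% conditional exact intervals on a log2 axis, for the 18 circRNAs with at least 500 reads (left, named by host gene) and for the 5 Ssbp2 circRNAs found in both libraries with a sum of at least 10 (right). The dominant Ssbp2 circRNA lies at 0.862, the second lowest on the left, and the intervals of the other Ssbp2 circRNAs cross 1.

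Minor reads were also split by library. Of the 13 minor circRNAs, 11 were listed in sham and 7 in BCP, 5 of them in both. Circles listed in sham alone were 6 with 33 reads, 13.9% of minor reads there (9.74 to 18.9), and those in BCP alone were 2 with 31 reads, 19.7% (13.8 to 26.8). Over the whole table, 9003 of 11599 circRNAs were listed in sham and 7375 in BCP, with 4779 in both. The split of the minor circRNAs by library is therefore a description and not a trait of Ssbp2. The minor circRNAs with reads in both libraries took 6.66% of Ssbp2 reads in sham (5.80 to 7.59) and 6.76% in BCP (5.66 to 7.99), which differ by less than counting error.

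Ssbp2 came second among 3865 host genes by circRNA reads, in each library and in both together. By the share of reads in its most abundant circRNA, 92.0% over both libraries, it was 36th of 321 host genes with at least 100 reads and at least 2 circRNAs, whose median was 58.6%. Of the 24 host genes with at least 500 reads and at least 5 circRNAs it was 4th, and their median was 53.2%. Host genes with at least 500 reads had a median of 11.5 circRNAs, and 10 of the 28 had more than the 14 of Ssbp2. High dominance thus went with a number of minor circRNAs close to that of other abundant hosts.

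Among the 24 host genes with at least 500 reads and at least 5 circRNAs, the ones most like it, by the distance between dominant shares in sham and BCP over the 2 libraries, were Tmeff1, Cdyl and Gigyf2. Tmeff1, which encodes a transmembrane protein with follistatin-like domains, had dominant shares of 94.3% and 90.8% (distance 2.23 percentage points). Cdyl, a chromodomain corepressor gene, had 94.9% in both (distance 4.27). Gigyf2, a regulator of translation and the host with most reads, had 95.2% and 96.2% (distance 5.48). The dominant to minor odds in BCP relative to sham were 0.589 for Tmeff1 (0.350 to 0.986), 0.993 for Cdyl (0.582 to 1.70) and 1.30 for Gigyf2 (1.08 to 1.56). Of the 321 host genes, 63 (19.6%) had an interval that excluded 1, and Ssbp2 was not one of them. Whether the odds of Ssbp2 differ from those of these genes was not tested.

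**Figure D5:**
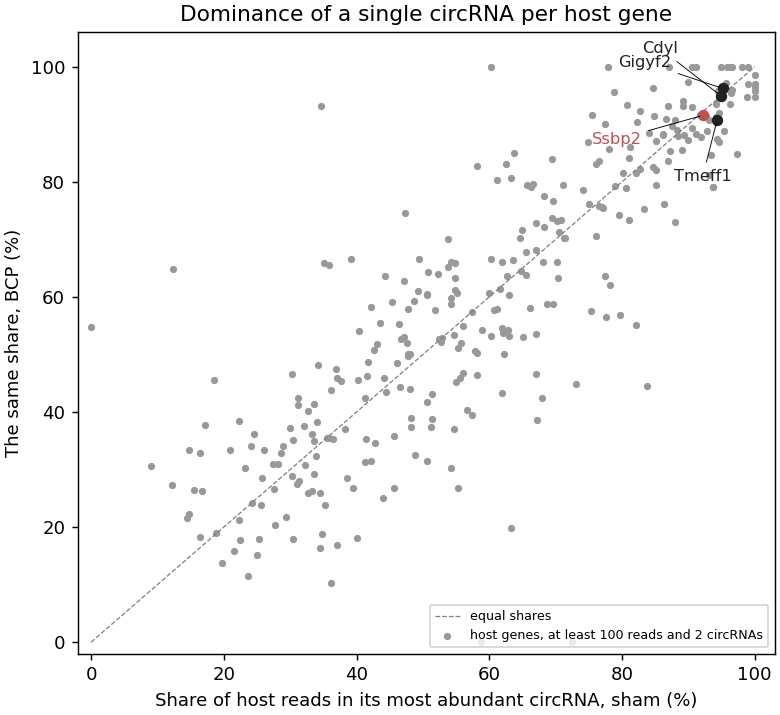
Share of a host gene's circRNA reads held by its most abundant circRNA, in percent, in sham (x axis) and BCP (y axis), for host genes with at least 100 reads and at least 2 circRNAs, with the line of equal shares dashed. Ssbp2 (red) lies at 92.3% and 91.6%, beside Tmeff1, Cdyl and Gigyf2 (black), in the corner of highest shares.

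By ratio, the circRNAs with at least 500 reads nearest to the dominant Ssbp2 circRNA over the 2 libraries were hosted by Elf2, Ubn2 and Zfp609. Elf2, an ETS transcription factor gene, had 756 and 472 reads (log2 ratio -0.16, 0.06 from Ssbp2). Ubn2, a gene for a ubinuclein histone chaperone subunit, had 334 and 215 reads (-0.12, 0.10 away). Zfp609, a zinc finger gene, had 765 and 509 reads (-0.07, 0.15 away). With 2 libraries this likeness is a single number per circRNA.

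The protein complex was looked up among the circRNA hosts. Of 29 genes for other SSBP proteins, LDB adaptors, LIM-domain factors and their partners, 4 hosted a circRNA: Tcf4, Tcf12, Lhx4 and Ssbp3. They had 9 circRNAs with 37 reads in sham and 29 in BCP in all, against 3080 and 1865 for Ssbp2. Ldb1, the direct partner of SSBP2, and Ssbp4 had no circRNA listed under their names. Ssbp1 had none either, and was on the list by its name although it encodes a mitochondrial protein outside the complex. Ssbp3, the close relative of Ssbp2, had 1 circRNA with 2 reads in BCP alone, and the LIM homeodomain gene Lhx4 had 1 with 2 reads in sham alone. Since Ssbp2 was chosen for its many reads, the gap to these genes is a description only.

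Only 2 circRNAs of these genes had enough reads for the size rule, both of the bHLH transcription factor gene Tcf4, and neither met it. One had 12 reads in sham and 16 in BCP (ratio 1.91, 0.849 to 4.43), and the other 6 and 4 (0.956, 0.198 to 4.03). Their median log2 ratio was 0.45, and that of all 3502 circRNAs with enough reads was 0.02. Summed over circRNAs, Tcf4 had 22 and 25 reads (1.63, 0.882 to 3.03). Tcf12, another bHLH factor gene, had 13 and 2 reads over 3 circRNAs (0.221, 0.0242 to 0.974), of which 9 of the sham reads came from a circRNA listed at 0 in BCP. With a minimum of 5 reads, 1 circRNA of the list was higher and 1 lower, each at 0 in the other library. The shares over all circRNAs at that minimum were not computed.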

How the data were processed

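CircRNAs were measured in 1 sham and 1 BCP library of RNase R-treated spinal cord RNA. The authors deposited back-splice read counts per circRNA and values headed TPM. These deposited values are CPM, since each nonzero one matches its count over the column total (tolerance 0.001 CPM), and 0.001 stands for 0. Per the submitters' processing notes, the tools were CASAVA 1.8 and BWA, on build rn6. No source used here names the circRNA caller, its minimum of reads or its annotation. Positions are printed as the table gives them, and exons were not used here.

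Counts were scaled to column totals, 113033 reads in sham and 78836 in BCP. Ratios have conditional exact binomial (Clopper-Pearson) intervals, shares exact binomial ones, and odds ratios conditional exact ones (SciPy 1.17.1). Log2 medians used a pseudocount of 0.5 reads. For host genes, small RNA family names and names spread over 3 Mb were dropped, which left 10004 circRNAs with 1 host. Besides Ssbp2, 5 members carried such family names. In all, 16 circRNAs had no name, and stayed in the totals. TMM scaling by edgeR 4.0.16 and median-of-ratios scaling by DESeq2 1.42.0, other minimums and other member sets were alternatives. The size rule was tested on simulated data. These data held counting error only, so the test does not cover amplification or differences between animals. Named were all Ssbp2 circRNAs, and the nearest hosts and circRNAs by fixed distances. Members, lists and rules were chosen with earlier results of these data known.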

Additional observations from a re-analysis of the deposited data

How the results depend on the processing

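Of 80 alternative values, 62 stayed within the main interval or within 1.5 times the main count. Some alternatives, such as the pseudocounts, could hardly move a sum of many reads, and a wide main interval is easily kept to. The count of 62 is therefore no measure of how stable the results are. The ratio of the dominant circRNA was 0.801 with median-of-ratios scaling and 0.7945 with TMM, and that of all Ssbp2 circRNAs was 0.807 and 0.8005. The dominant share of Ssbp2 reads was 94.6% in sham and 93.4% in BCP over circRNAs naming Ssbp2 alone, 93.3% and 93.1% over those with reads in both libraries, and 96.1% and 95.8% without the near-end circRNA. Without the circRNA ending at 20626804, chosen after seeing the data, it was 93.03% in BCP. The Ssbp2 circRNAs lower in BCP by the size rule were 3 with a minimum of 5 reads or none, and 0 with a minimum of 20. For the complex genes, minimums of 5 reads or none gave 1 higher and 1 lower in place of 0. These counts depend on how many circRNAs were tested, and the shares over all circRNAs at these minimums were not computed. The ratio of the minor circRNAs ran from 0.771 to 1.07. The lowest value, without the circRNA ending at 20626804, had an interval that excludes 1 (0.617 to 0.960), but its set kept the circRNAs listed in sham alone. With reads in both libraries required, the ratio was 0.881 (0.700 to 1.11). The dominant to minor odds ran from 0.806 to 1.12. No paired analysis was possible because each group had 1 library, and for the same reason no library could be left out. A minimum of 2 reads per listed circRNA limits what the minor circRNAs can show, more so in the shallower BCP library.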

Other observations

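A further circRNA began at the dominant Ssbp2 start (20507150 on chromosome 2) and ended at 20702537, 27846 bp past the last Ssbp2 end, but its gene field held small RNA family names and not Ssbp2. Its reads were 2 in sham and 0 in BCP.

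The start at 20649051 and the end at 20649110 enclose 60 bp. That end was joined to the dominant start (8 reads) and that start to 2 later ends (10 reads), all in sham, and none of these 3 circRNAs was listed in BCP.

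The circRNA whose start lay 5 bp from the dominant one had 0.440% of the dominant reads over both libraries. Of the 18 circRNAs with at least 500 reads, 5 had such a partner, with 1 end in common and the other within 10 bp, at 0.0258% to 4.40% of their reads, and Ssbp2 was the third highest of them. Whether these are separate splice sites or misplaced reads was not tested.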
